A study of Mus musculus with 7 samples.

Results

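The genes described here are 39 interferon-stimulated genes and interferon-inducible GTPases in the ileum of mice fed a normal or a low cystine diet. They were taken by gene name from a table of 38293 genes, and all 39 had enough counts to be among the 14869 genes tested. The list was put together with earlier results of these data known, and Rtp4 is on it because it was lower on the low cystine diet, so Rtp4 is described without a test and calls are counted over the other 38.

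Male C57BL/6NRJ mice, 8 weeks old at the start and housed singly, ate a high fat AIN93G diet (40 en% fat) during 1 week of acclimatization and then 1 of the 2 intervention diets for 2 weeks. The normal cystine diet (normal cys) contained 0.3% added L-cystine on top of 0.08% cystine from casein. In the low cystine diet (low cys) the added cystine was replaced by 0.11% alanine, which left the 0.08% from casein as the total. Both diets were high in fat and low in calcium, and there was no low fat group. The labels and methods name no infection or interferon treatment. RNA was taken from scraped ileal mucosa, so immune and stromal cells of the lamina propria are in the samples along with the epithelium. The 4 normal cys libraries are X17SI4, X32SI4, SI9 and X1SI4, and the 3 low cys libraries are X23SI4, X26SI4 and X10SI4. Values are listed in this order throughout, and each library is taken as 1 mouse, since the labels list them as separate samples. Without a batch or date in the labels, a batch effect was not examined. The libraries held 14888760 to 22412703 counts, and the lowest count of any of the 39 genes in a library was 20. Between mice on the same diet, expression varied by 25.5% beyond counting error (biological coefficient of variation). Levels are CPM, that is, raw counts scaled to 1000000 counts per library after TMM correction of the library totals, and a log2 fold change is low cys minus normal cys with its standard error (SE).

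Interferons are cytokines that cells release on infection. Type I and type III interferons act through a transcription factor complex that contains Stat2 and Irf9 and binds the interferon-stimulated response element (ISRE), and the response to type II interferon (interferon gamma) runs through the gamma-activated site (GAS). The genes they switch on encode sensors of foreign nucleic acids, enzymes that block viral replication, and GTPases that attack the vacuoles of intracellular pathogens. In the gut, a low basal level of these genes is kept up by the microbiota, and intraepithelial lymphocytes are a source of interferon gamma.

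Promoter sequence was examined first, as it does not depend on the counts. The genes were listed as interferon-stimulated, so the share of them with these motifs describes that choice and is not an independent result. RefSeq promoter sequences (GRCm38.p6, from 250 bases before to 50 bases after the start site) were found for 29 of the 39 genes, and a gene with several promoters was counted once if any of them matched. The ISRE was searched as GAAANNGAAA, which reads TTTCNNTTTC on the other strand, and the GAS as TTCNNNGAA, which is its own reverse complement. The ISRE letters occurred in 19 of the 29 genes (65.5%), against 3.99% of all 27025 genes with a promoter in the table. The GAS letters occurred in 9 (31.0%), against 9.55% of those genes. Both occurred in 6 and neither in 7. In 1 of the 29, Bst2, an ISRE and a GAS match overlap. A match of letters is a description and not a measured binding site. The stretches below lie upstream of the RefSeq start site and are read 5′ to 3′ on the strand of the gene, with the ISRE and GAS letters in capitals. For Irgm1 and Irgm2 the stretch lies within the bounds of the gene as counted, and for Gbp2 it does in part. In these genes the RefSeq start site lies further into the gene than the annotation used for the counts. They are shown as examples of the motifs in several roles: Oas1a, Ifit1 and Isg15 are antiviral genes, Igtp, Irgm1, Irgm2, Gbp2 and Gbp7 are GTPases, and Irf1 is a transcription factor with a GAS match and no ISRE match.
Oas1a, chr5:120907526-120907633, minus strand: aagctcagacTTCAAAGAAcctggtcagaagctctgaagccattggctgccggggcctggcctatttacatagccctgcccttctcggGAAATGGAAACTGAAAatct
Ifit1, chr19:34640775-34640823, plus strand: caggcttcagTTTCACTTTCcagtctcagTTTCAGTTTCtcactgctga
Isg15, chr4:156200865-156200906, minus strand: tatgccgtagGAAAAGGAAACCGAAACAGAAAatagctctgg
Igtp, chr11:58199501-58199541, plus strand: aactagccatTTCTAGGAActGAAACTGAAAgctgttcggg
Irgm2, chr11:58214892-58214932, plus strand: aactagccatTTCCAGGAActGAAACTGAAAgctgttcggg
Irgm1, chr11:48871425-48871460, minus strand: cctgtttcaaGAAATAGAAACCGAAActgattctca
Gbp2, chr3:142620594-142620623, plus strand: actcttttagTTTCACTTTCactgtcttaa
Gbp7, chr3:142530220-142530302, plus strand: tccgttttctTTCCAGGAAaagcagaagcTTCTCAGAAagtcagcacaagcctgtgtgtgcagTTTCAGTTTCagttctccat
Irf1, chr11:53769914-53769942, plus strand: acagcctgatTTCCCCGAAatgatgaggc
The stretches of the neighbouring genes Igtp and Irgm2 differ at 1 of 41 bases, T14C, counted from 1 at the 5′ end, with the base of Igtp first. All 3 immunity-related GTPases and all 3 guanylate-binding proteins with a promoter in the table had an ISRE match. Irf7, Oasl1 and Oasl2 had neither motif in this window.

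None of the 38 tested genes was called between the diets. The smallest adjusted p-value among them was 0.794 (edgeR quasi-likelihood test, Benjamini-Hochberg over 14869 genes), and of all genes 0 passed (0%). With DESeq2, 0 of the 38 passed as well (smallest adjusted p 0.199), while 16 of all genes did (0.108%). At an unadjusted p-value under 0.05, 9 of the 38 were lower on the low cystine diet and 0 were higher, where 5.49% of all genes passed, 2.83% lower and 2.66% higher. The 9 became 3 with library totals alone (0.847% of all genes lower) and 4 without X23SI4 (0.551%), and without X17SI4 there were 8 lower and 2 higher (5.63% and 6.30% of all genes). Because the genes were chosen with this contrast in view, nothing is read from these counts beyond the values. The estimate was below 0 for 33 of the 39 genes (48.8% of all genes), with a median log2 fold change of -0.36, against 0.01 over all genes. Without Rtp4, which was chosen for being lower, it was below 0 for 32 of the 38, with a median of -0.36. The 6 genes with an estimate above 0 were Igtp, Irgm1, Irgm2, Gbp3, Gbp6 and Gbp7, all of them GTPases of the IRG and GBP families, and the other 31 genes outside these families were all below 0. This division depended on the libraries and the method. Without X17SI4, 15 estimates were above 0, of which 7 lay outside the IRG and GBP families, and with limma-voom 10 were above 0, of which 3 lay outside. With scaling to the library totals alone, which moved the median of all genes to 0.15, 8 were above 0, of which 2 lay outside. Without SI9, X1SI4 or X26SI4, 1 was above 0. The median of the 39 rested in part on single mice: it was -0.12 without X17SI4 and -0.58 without X26SI4.

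**Figure D1:**
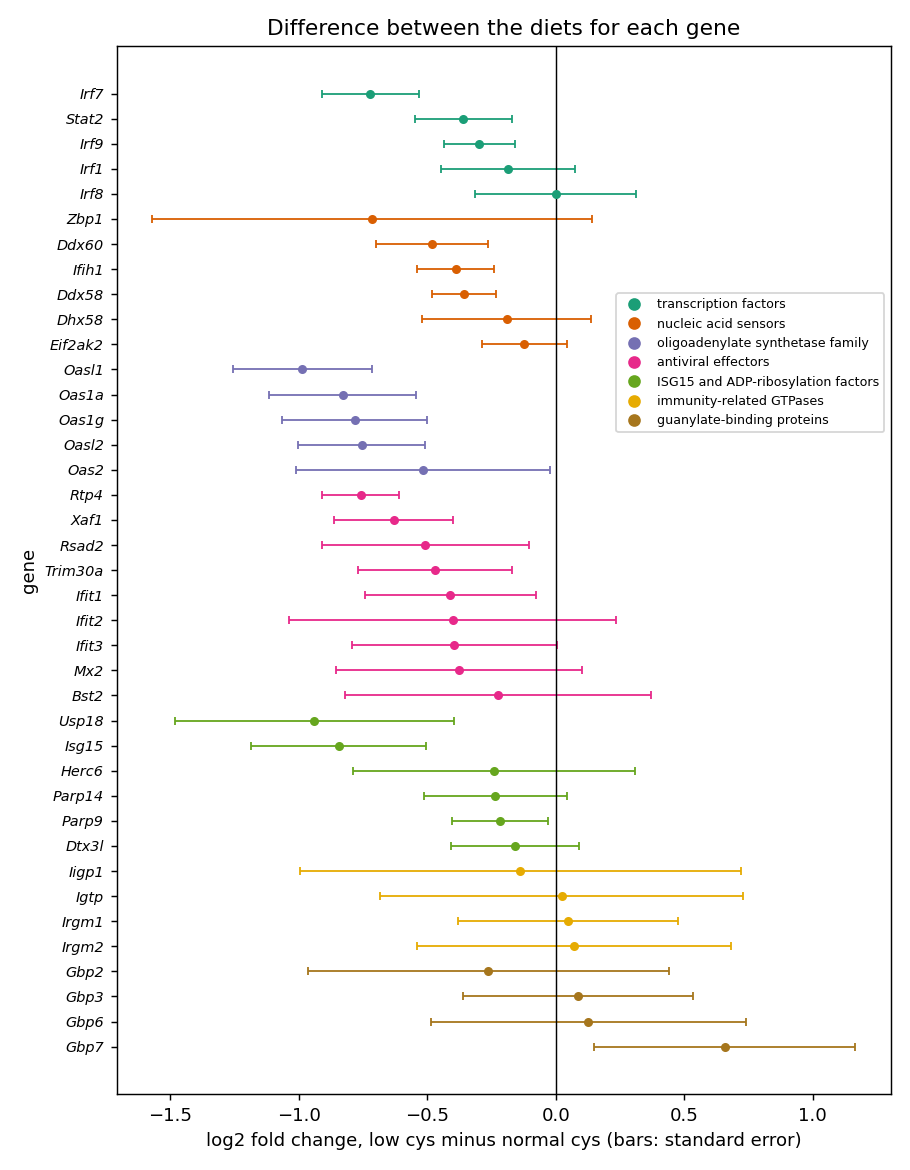
Log2 fold change of each of the 39 genes, low cys minus normal cys (x axis), with SE bars, grouped and coloured by role (y axis). The oligoadenylate synthetase family lies between -0.99 and -0.52, while the immunity-related GTPases lie between -0.14 and 0.07 with wide bars.

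In 6 of the 39 genes every low cys library lay below every normal cys library, which was the case in 3.51% of all genes. These were Rtp4, Irf7, Ddx58, Oas1a, Oasl1 and Oasl2. As Rtp4 is on the list because it was lower on low cys, it adds nothing to this count, which was 5 of 38 (13.2%) without it. The other counts in this paragraph are over all 39 genes, Rtp4 included. In 0 of the 39 did all low cys libraries lie above (3.32% of all genes). With library totals alone the 6 became 3, namely Rtp4, Irf7 and Oasl1. Groups with fewer libraries overlap less in any gene. The count was 15 without the low cys library X26SI4, where the share of all genes was 8.05%, and 12 without the normal cys library X1SI4, where it was 5.26%. Leaving out any other library gave 6 or 7 (4.20% to 9.39% of all genes).

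**Figure D2:**
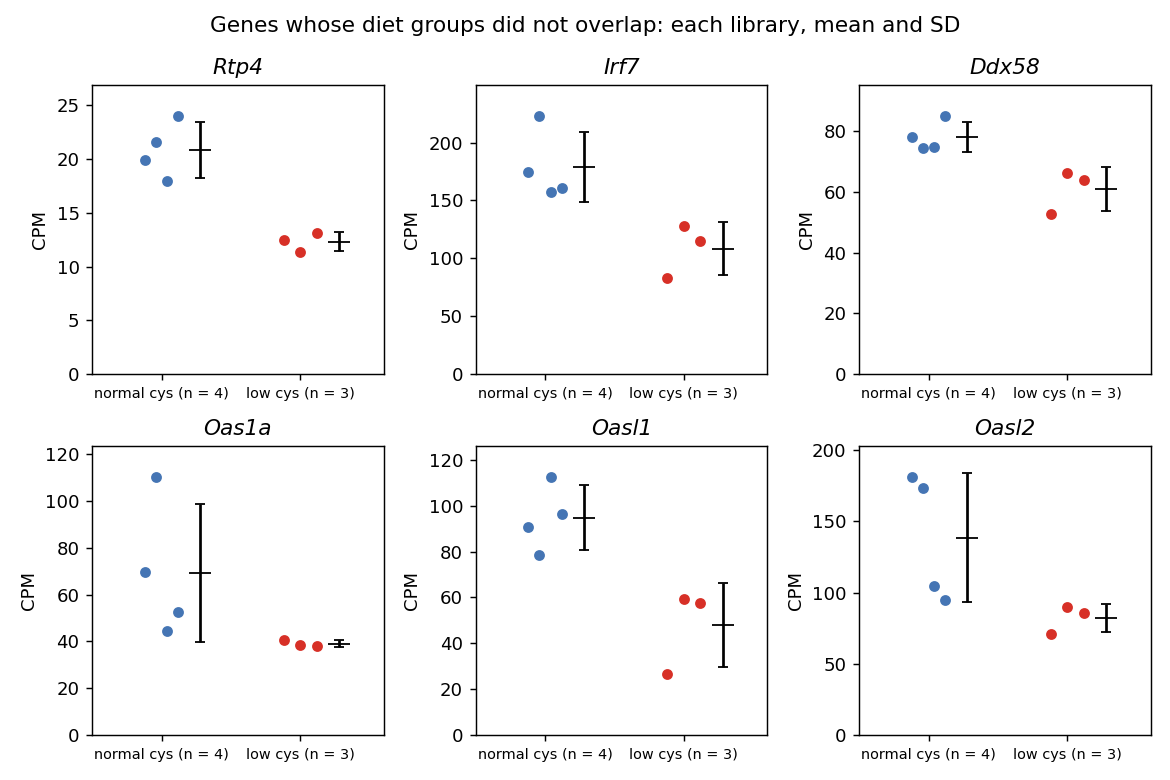
CPM (y axis, from 0) of the 6 genes whose diet groups did not overlap, with 1 point per library for normal cys (blue, n = 4) and low cys (red, n = 3) and the mean with its SD. For Oas1a and Oasl2 the lowest normal cys points lie close above the low cys points, while for Rtp4, Irf7 and Oasl1 the gap is wider.

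Rtp4 encodes a receptor transporter protein that is induced by interferon and restricts viruses. It lies on chromosome 16 (GRCm38, 23609919 to 23614222, plus strand). Its level was 19.9, 21.6, 17.9 and 24.0 CPM in the normal cys libraries and 12.4, 11.4 and 13.1 CPM in the low cys libraries. Every low cys value was below the lowest normal cys value, and the highest library was 1.34 times the lowest within normal cys and 1.16 times within low cys. The mean was 20.9 ± 2.59 CPM (SD, n = 4) on normal cys and 12.3 ± 0.893 CPM (SD, n = 3) on low cys, with a log2 fold change of -0.76 (SE 0.15). This difference chose the gene, so it has no test. In the transcripts of the gene, 11.6% of all 50-base stretches, the read length, also occur in transcripts of the gene Gm45338.

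The 5 transcription factors had estimates from -0.72 to -0.00. Irf7, the factor that amplifies type I interferon production, was at 174, 223, 157 and 161 CPM on normal cys and at 83.2, 128 and 115 CPM on low cys. The groups did not overlap, and the log2 fold change was -0.72 (SE 0.19). Stat2 was at 131, 108, 95.6 and 86.4 CPM on normal cys and at 77.6, 101 and 67.1 CPM on low cys (-0.36, SE 0.19). Its partner Irf9 was at 51.3, 54.5, 48.9 and 46.0 CPM on normal cys and at 41.0, 47.3 and 34.2 CPM on low cys (-0.30, SE 0.14). For both genes the low cys library X26SI4 reached into the normal cys range while X23SI4 and X10SI4 lay below it. Irf1, a factor induced by interferon gamma and, per kilobase of exon, the most abundant of the 39 transcripts (59.0 CPM per kilobase), was at 355, 205, 213 and 217 CPM on normal cys and at 180, 300 and 173 CPM on low cys (-0.19, SE 0.26). One mouse of each diet, X17SI4 and X26SI4, stood above the others. Irf8, a factor of myeloid and lymphoid cells, was at 193, 128, 132 and 69.8 CPM on normal cys and at 104, 170 and 118 CPM on low cys, and its estimate of -0.00 (SE 0.31) was above 0 with limma-voom (0.06) and with library totals alone (0.13). Its exons, like those of the other members, were counted in tissue scrapings, in which fewer cells of a type and less RNA per cell cannot be told apart.

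The 6 nucleic acid sensors had a median log2 fold change of -0.37. Ddx58 (RIG-I), the sensor of viral RNA ends, was at 78.1, 74.5, 74.9 and 85.0 CPM on normal cys and at 52.9, 66.3 and 63.9 CPM on low cys. Its normal cys values lay close together, all above the low cys values, and the log2 fold change was -0.36 (SE 0.12). Ifih1 (MDA5, long double-stranded RNA) and Ddx60, a helicase of the same pathway, had estimates of -0.39 (SE 0.15) and -0.48 (SE 0.22). For Dhx58 (LGP2) and for Eif2ak2, the kinase PKR that halts translation, they were -0.19 (SE 0.33) and -0.12 (SE 0.17). Zbp1, which senses Z-form nucleic acids and triggers cell death, varied most between mice. It was at 188, 55.7, 24.8 and 8.74 CPM on normal cys, a 21.5-fold range, and at 37.7, 57.6 and 31.4 CPM on low cys. All low cys values lay inside the normal cys range, and the log2 fold change of -0.71 had an SE of 0.86 and was 0.50 without X17SI4.

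The oligoadenylate synthetase family had the lowest estimates of the 7 role groups, with a median of -0.78. The active members make the messenger that switches on RNase L, which degrades RNA. The family median stayed between -0.90 and -0.49 with any library left out and between -0.80 and -0.66 under the other settings. Oas1a was at 69.5, 110, 44.5 and 52.4 CPM on normal cys and at 40.6, 38.3 and 37.96 CPM on low cys (-0.83, SE 0.29). The low cys values were nearly alike, and X32SI4 stood out on normal cys. Oas1g followed the same order of normal cys libraries (62.3, 89.8, 35.6 and 47.9 CPM), with 38.2, 31.5 and 33.0 CPM on low cys and an estimate of -0.78 (SE 0.28). Of the 50-base stretches of Oas1a 57.6% also occur in Oas1g, so these counts may not be independent of each other. Oasl1, which in mice represses translation of Irf7, had the most negative estimate of the 39 genes. It was at 90.9, 78.6, 113 and 96.5 CPM on normal cys and at 26.6, 59.4 and 57.6 CPM on low cys (-0.99, SE 0.27). It shared no 50-base stretch with another gene, and its lowest value, in X23SI4, was below the other low cys values by more than the gap between the diets. Its neighbour Oasl2 was at 181, 174, 105 and 94.5 CPM on normal cys and at 71.1, 89.7 and 85.6 CPM on low cys (-0.75, SE 0.25). Oas2, with 3.34 to 12.6 CPM, was the least abundant member and had an estimate of -0.52 (SE 0.50).

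The 9 antiviral effectors, Rtp4 included, had estimates from -0.76 to -0.23. Ifit1, which binds viral RNA and was the most abundant of them per kilobase, was at 93.9, 55.1, 48.6 and 40.7 CPM on normal cys and at 30.7, 64.9 and 39.1 CPM on low cys (-0.41, SE 0.33). The groups overlapped through X26SI4. Its neighbours on chromosome 19, Ifit2 and Ifit3, had estimates of -0.40 (SE 0.64) and -0.39 (SE 0.40), and 51.2% of the 50-base stretches of Ifit3 also occur in Ifit3b. Xaf1, a proapoptotic gene, had an estimate of -0.63 (SE 0.23), and Trim30a, a ubiquitin ligase, of -0.47 (SE 0.30). Rsad2 (viperin) had an estimate of -0.51 (SE 0.40) and was at 6.33 and 8.64 CPM in 2 low cys mice but at 23.4 CPM, its highest value, in X26SI4. For Mx2, a GTPase gene of the Mx family, and Bst2 (tetherin), which holds virions at the cell surface, the estimates were -0.38 (SE 0.48) and -0.23 (SE 0.60). Bst2 ranged from 2.68 to 19.9 CPM within normal cys alone.

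The ISG15 and ADP-ribosylation factors held 2 genes with low estimates and 4 near 0. Isg15, a ubiquitin-like protein that is attached to other proteins, was at 31.9, 29.3, 23.1 and 13.0 CPM on normal cys and at 8.28, 15.7 and 16.8 CPM on low cys (-0.84, SE 0.34). Usp18, the protease that removes Isg15 and dampens the type I receptor, was at 14.9, 14.7, 9.62 and 2.72 CPM on normal cys and at 3.22, 7.75 and 5.54 CPM on low cys (-0.94, SE 0.54). In both genes 3 of the 4 normal cys libraries lay above the low cys range, while X1SI4 lay within it for Isg15 and below it for Usp18. The estimates were -1.05 and -1.26 without X1SI4 and -0.57 and -0.65 without X23SI4. Herc6, the ligase for Isg15 in mice, had an estimate of -0.24 (SE 0.55). Parp9, Dtx3l and Parp14, neighbours on chromosome 16 that attach ADP-ribose or ubiquitin, had estimates of -0.22 (SE 0.19), -0.16 (SE 0.25) and -0.23 (SE 0.28). Parp9 and Dtx3l share 458 exon bases on opposite strands, and the strand setting of the counting is not stated, so reads in that part may count for either.

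The 8 immunity-related GTPases (IRG) and guanylate-binding proteins (GBP) varied widely between mice of the same diet. Igtp (Irgm3), which guards host membranes, was at 112, 32.9, 22.6 and 13.6 CPM on normal cys and at 37.7, 76.9 and 23.4 CPM on low cys (0.02, SE 0.71). Iigp1, on chromosome 18, was at 10.9, 3.95, 1.21 and 0.955 CPM on normal cys and at 2.73, 7.25 and 1.61 CPM on low cys (-0.14, SE 0.86). In both genes X17SI4 was highest, X26SI4 was next, and the remaining low cys values lay inside the normal cys range. Gbp6 was at 76.5, 38.3, 26.1 and 19.3 CPM on normal cys and at 22.5, 87.9 and 21.01 CPM on low cys (0.13, SE 0.61). Gbp7 was at 19.7, 6.50, 4.89 and 5.54 CPM on normal cys and at 15.7, 18.9 and 8.64 CPM on low cys (0.66, SE 0.51). For Gbp7 all low cys values lay above 3 of the 4 normal cys values, and the exception was X17SI4. Irgm1 and Irgm2 had estimates of 0.05 (SE 0.43) and 0.07 (SE 0.61), and Gbp2 and Gbp3 of -0.26 (SE 0.70) and 0.09 (SE 0.45). X17SI4 was the highest normal cys library in 7 of the 8 genes, X26SI4 was the highest low cys library in 8 of 8, and these were the 2 highest libraries of all in 7 of 8, with Gbp3 as the exception. The median estimate followed these mice: for the IRG genes it was 0.04 with all libraries, 0.91 without X17SI4 and -0.44 without X26SI4, and for the GBP genes it was 0.11, 0.70 and -0.24. Igtp and Irgm2 overlap by 162 exon bases on the same strand, and 11.8% of the 50-base stretches of Igtp also occur in Irgm2 and 6.79% of those of Irgm2 in Igtp.

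**Figure D3:**
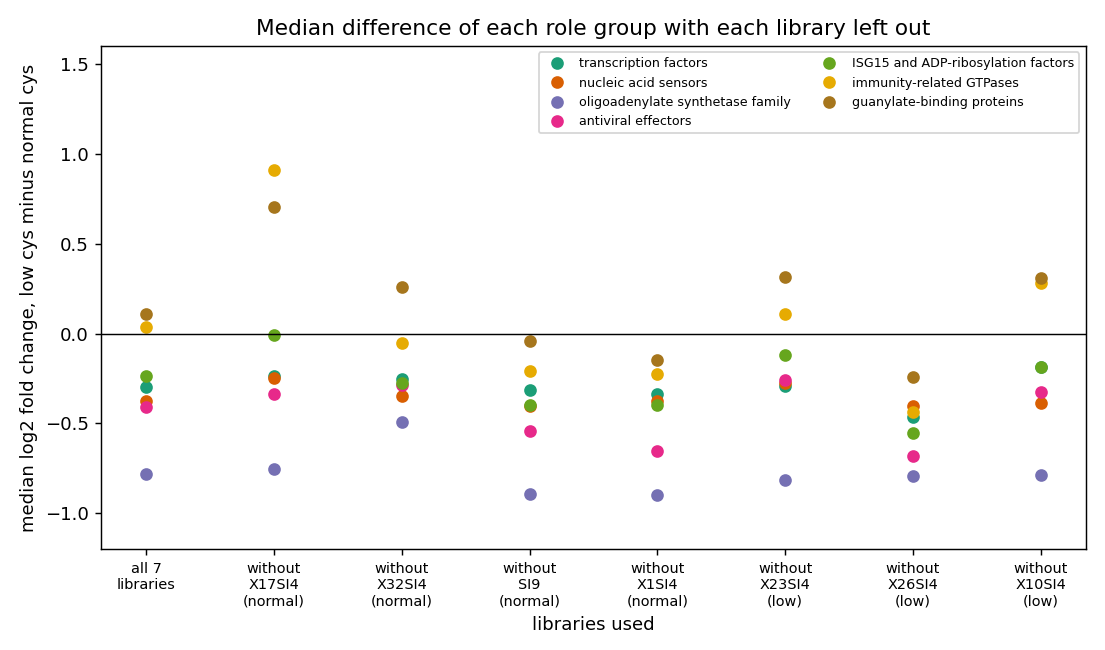
Median log2 fold change of each role group (y axis, low cys minus normal cys) with all 7 libraries and with each library left out in turn (x axis). The oligoadenylate synthetase family stays between -0.90 and -0.49, while the immunity-related GTPases go from -0.44 without X26SI4 to 0.91 without X17SI4.

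Mice on the same diet differed from each other in these genes. The highest of the 4 normal cys libraries was more than 4 times the lowest in 12 of the 39 genes (30.8%), against 9.48% of all genes, and the median ratio was 2.48 against 1.62. The level of the 39 genes together, as a sum, was 3238, 2340, 1882 and 1865 CPM in the normal cys libraries and 1561, 2335 and 1613 CPM in the low cys libraries. On the mean of log2 CPM the values were 5.52, 5.17, 4.58 and 4.27 on normal cys and 4.43, 5.02 and 4.47 on low cys. Thus the lowest mean log2 level was in a normal cys mouse (X1SI4), and the low cys mouse X26SI4 lay above 2 normal cys mice. The mean difference between the diets on this scale was -0.24, and it was -0.03 without X17SI4 and -0.45 without X1SI4. X17SI4 was the highest library in 22 of the 39 genes (13.2% of all genes) and X32SI4 in 12 (14.0%), and only Rsad2 and Gbp6 were highest in a low cys library. X26SI4 was the highest low cys library in 32 of the 39 (38.8% of all genes). X1SI4 was the lowest normal cys library in 23 of the 39 (31.5% of all genes), but for Ddx58 and Rtp4 it was the highest library.

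**Figure D4:**
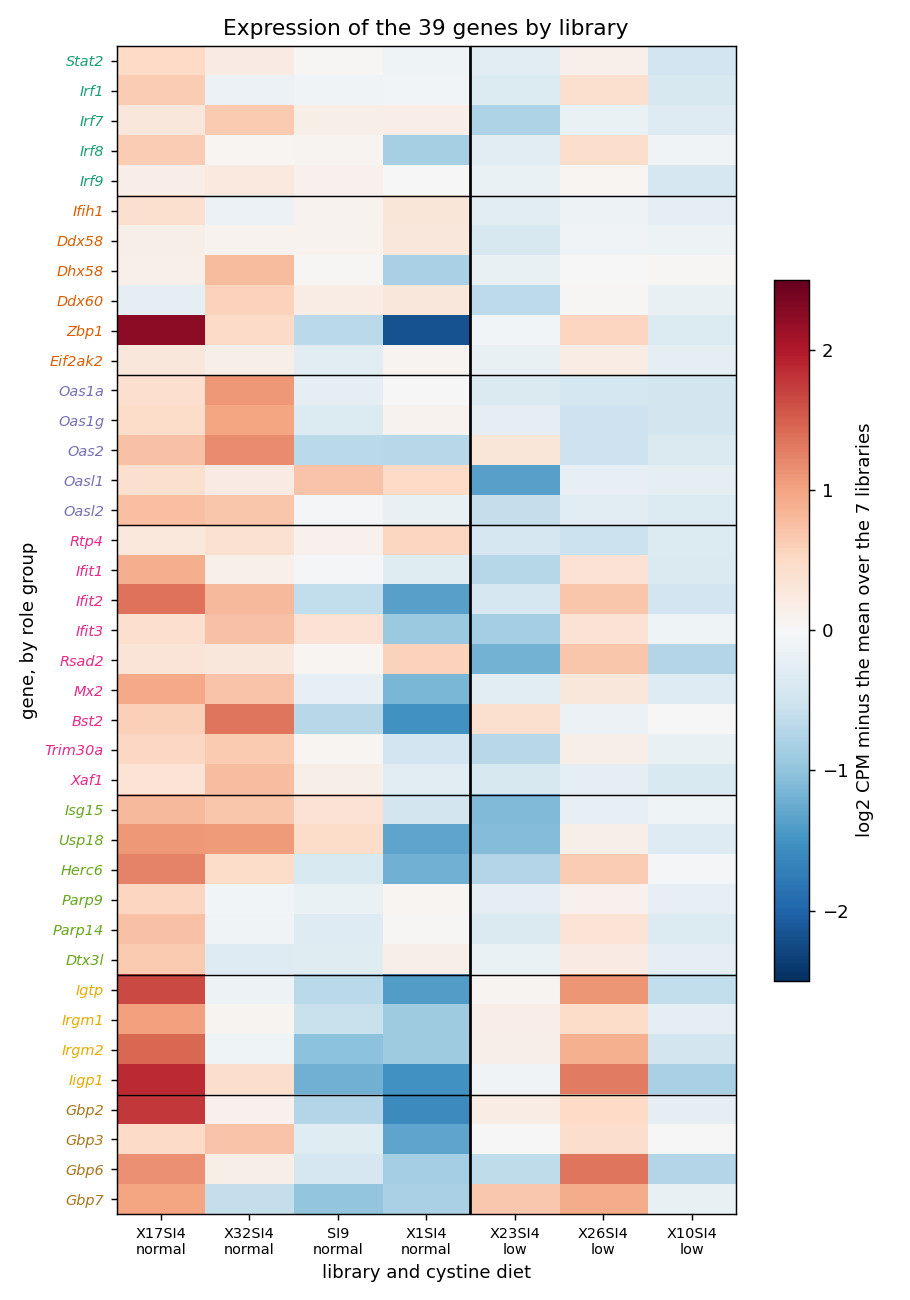
Log2 CPM of each gene minus its mean over the 7 libraries (colour) by gene and role group (y axis) and library with its diet (x axis). The column of X17SI4 is red in nearly all genes, X26SI4 is red in the lower block of GTPases, and Oas1a, Oas1g and Oas2 are reddest in X32SI4.

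The 2 normal cys mice with the highest levels, X17SI4 and X32SI4, were high in different genes. This pair was chosen after the values were seen and compares 2 single libraries, so it has no test. X17SI4 was above X32SI4 in 26 of the 39 genes, where it was above it in 50.2% of all genes. The 4 IRG genes were 1.94 to 3.41 times higher in X17SI4, Gbp2 was 3.19 times, Gbp7 3.03 times, Gbp6 1.998 times and Zbp1 3.37 times higher, and Dtx3l and Parp14 were 1.98 and 1.77 times higher. In the other direction the ratio of X17SI4 to X32SI4 was 0.565 for Ddx60, 0.596 for Bst2, 0.630 for Oas1a, 0.634 for Dhx58, 0.693 for Oas1g, 0.724 for Oas2, 0.750 for Xaf1, 0.782 for Irf7 and 0.848 for Gbp3, the one GTPase of the IRG and GBP families in this direction. By role group, the median log2 ratio was 1.51 for the IRG genes, 1.30 for the GBP genes and -0.47 for the oligoadenylate synthetase family. Within that family Oasl1 and Oasl2 were 1.16 and 1.05 times higher in X17SI4. The median was 0.69 for the ISG15 and ADP-ribosylation factors, 0.29 for the transcription factors, 0.10 for the nucleic acid sensors and -0.12 for the antiviral effectors. Of the 16 genes that were highest in X17SI4 and have a promoter in the table, 7 have the GAS letters and 10 the ISRE letters, and of the 10 highest in X32SI4, 2 have the GAS letters and 7 the ISRE letters. These are few genes, with the nearly identical stretches of Igtp and Irgm2 among them, and a difference in motifs was not tested. The stretches of Igtp, Irgm2, Gbp7 and Oas1a printed above hold both motifs.

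**Figure D5:**
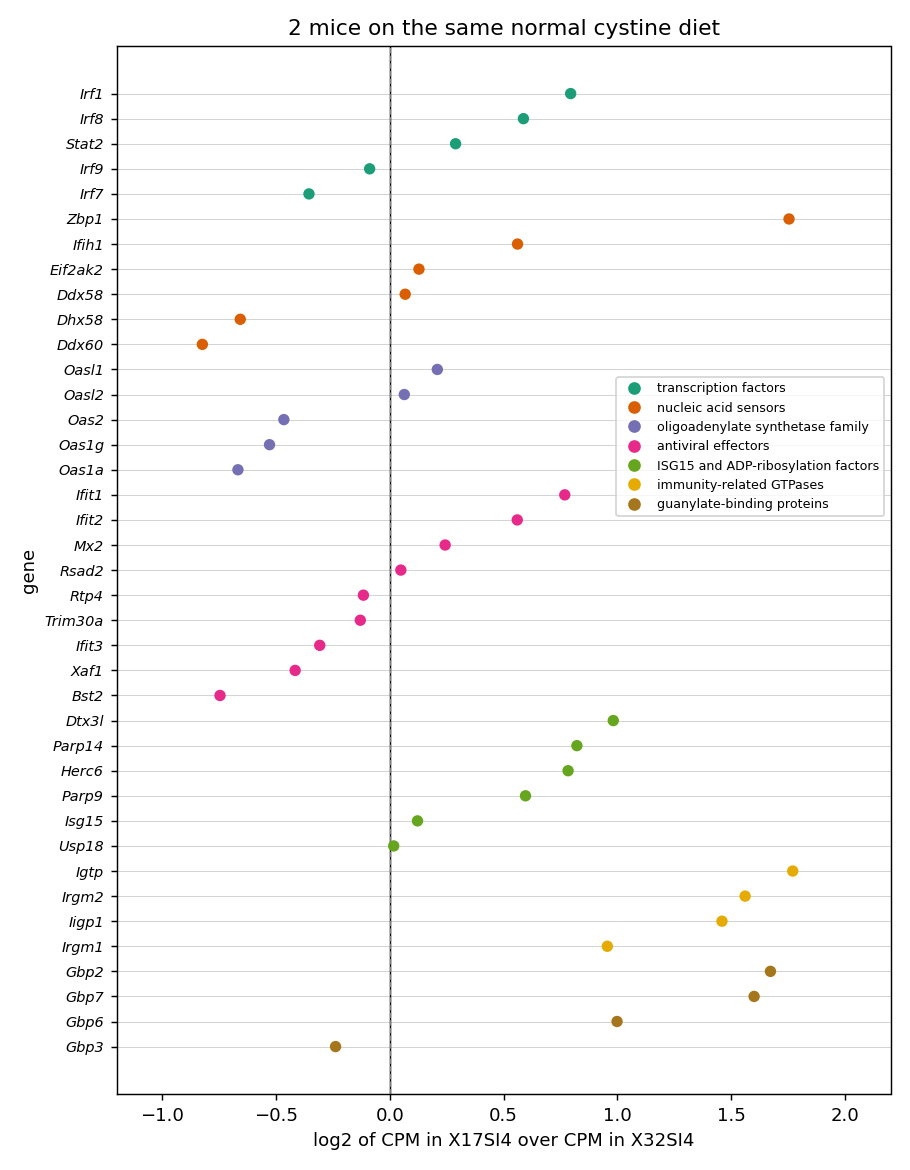
Log2 ratio of the CPM in X17SI4 to that in X32SI4 (x axis), 2 mice on the normal cystine diet, for each gene, coloured by role group (y axis). The solid line marks 0 and the dashed line, which lies almost on it, the median of all genes (0.00). Immunity-related GTPases lie to the right and Oas1a, Oas1g and Oas2 to the left.

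The interferons themselves were close to undetected. Of 18 interferon genes in the table, 14 had 0 counts in every library, all of them type I interferons, where 0 counts allow a level of up to 0.122 to 0.193 CPM per library (3 counts, counting error only). Ifng, the gene of interferon gamma, had 9, 6, 1 and 0 counts in the normal cys libraries and 6, 12 and 2 in the low cys libraries. Its highest counts were in X26SI4 and X17SI4, but these are few counts and no gene of this list was tested. Ifnk had 1 count in X17SI4 and 1 in X32SI4, and the type III interferons Il28a and Il28b had 2 and 1 counts, all in X10SI4. The 9 receptor and Janus kinase genes were all tested and had estimates from -0.34 to -0.11, with 0 called by edgeR or DESeq2 and 0 at an unadjusted p-value under 0.05.

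Of 105 other interferon pathway genes tested, these receptors included, 0 were called with edgeR, and 8 were lower (2.83% of all genes) and 2 higher (2.66%) at an unadjusted p-value under 0.05. Their median log2 fold change was -0.16, with 72 below 0 (48.8% of all genes). Oas3, a synthetase gene between Oas2 and Oas1g on chromosome 5, was at 47.4, 74.8, 37.4 and 33.9 CPM on normal cys and at 18.1, 27.6 and 28.4 CPM on low cys (-0.97, SE 0.29). Ifi35, Uba7 (the activating enzyme for Isg15), Trim34a and Trim25 (the ubiquitin ligase of RIG-I) had estimates of -0.44, -0.42, -0.43 and -0.40. In Oas3, Ifi35, Uba7, Trim34a and Trim25 all low cys libraries lay below all normal cys libraries. Over the 105 genes this was the case in 7 (6.67%, against 3.51% of all genes), and all low cys libraries lay above in 2 (3.32% of all genes). The rest of the 7 were H2-K1 (-0.46, SE 0.21) and Lgals3bp (-0.32, SE 0.17). Nmi, Ube2l6 and Parp12 were also lower at an unadjusted p-value under 0.05 with edgeR, but their groups overlapped. The large GTPase genes Gm4070 and Gvin1 were the 2 that were higher, with log2 fold changes of 1.10 and 1.07 and groups that did not overlap. Their adjusted p-value was 0.291 with edgeR, and DESeq2 called both. As 97.8% and 99.2% of their 50-base stretches are shared, mainly with each other, they are near-identical copies and not 2 independent results. Among the 105 were the 13 MHC class I and immunoproteasome genes, of which 11 had estimates below 0 (median -0.12), where 48.8% of all genes did. Of these 13, 0 were called by edgeR or DESeq2, with 0 at an unadjusted p-value under 0.05.

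Levels of cell type markers differed between libraries, and in scrapings fewer cells and less RNA per cell cannot be told apart. The 8 enterocyte markers all had estimates below 0 (median -0.51), from -0.94 for Fabp2 to -0.15 for Cdh1, with -0.30 for Epcam. Their summed level was 29009 to 48839 CPM on normal cys and 14629 to 30809 CPM on low cys. In SI9, the highest sum, Fabp2, Apoa1 and Apoa4 made up 18969, 11366 and 6720 CPM. The stroma markers summed to 5.88 to 10.5 CPM on normal cys and 13.1 to 20.3 CPM on low cys. Those of smooth muscle summed to 2.34 to 12.1 CPM on normal cys and 5.63 to 38.2 CPM on low cys, highest in X26SI4. X17SI4 had the highest sum of the 11 T and NK cell markers (287 CPM, against 148 to 179 CPM in the other normal cys libraries and 110.1 to 181 CPM on low cys). Gzma and Gzmb, genes of cytotoxic lymphocytes, made up 107 and 60.1 CPM of it (1150 counts of Gzmb). X17SI4 was the highest library in 7 of the 10 markers tested, while Cd3g was highest in SI9 and Cd8b1 and Klrd1 in X1SI4. X1SI4 had the lowest sum of the 10 macrophage and dendritic cell markers (14.0 CPM, against 39.5 to 56.6 CPM in the other libraries). Siglech, a defining gene of plasmacytoid dendritic cells, had 1 to 16 counts. The B and plasma cell markers summed to 226 to 316 CPM on normal cys and 286 to 409.7 CPM on low cys. Among them the B cell gene Cd79a had 41, 394, 222 and 33 counts on normal cys and 282, 231 and 53 on low cys. Jchain, a gene of antibody-secreting cells, was at 101.7, 74.4, 75.9 and 32.9 CPM on normal cys and at 124, 185 and 198 CPM on low cys, without overlap (1.25, SE 0.33, adjusted p 0.794 with edgeR). The part of these cells in the differences between mice or diets was not tested.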

How the data were processed

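RNA of the 7 ileal libraries was measured by poly(A)-selected stranded RNA sequencing in paired reads of 50 bases. According to the submitters' processing notes and the methods, reads were checked with FastQC (0.11.8), trimmed with Trim Galore (0.6.5), cleared of ribosomal RNA, mapped by STAR to the GRCm38 genome, and featureCounts then counted them on the exons of Ensembl release 70. The deposited values are the authors' raw counts of reads for each gene, which were not normalized. The strand setting and the treatment of reads that map to several places are not given in the sources used here. The table also lists an exon length per gene, used for CPM per kilobase.

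The members and gene lists were chosen with earlier results of these data known. Genes were filtered with filterByExpr of edgeR 4.0.16 (minimum count 10, minimum total 15), scaled by TMM, and low cys was compared with normal cys in its quasi-likelihood test with robust dispersions, no covariate, Benjamini-Hochberg over 14869 genes, threshold 0.05. SE is the log2 fold change over the square root of F. Log2 CPM used a prior count of 2. Values per library are given for Rtp4, the transcription factors, genes whose groups did not overlap, and, per role group, the gene with the most CPM per kilobase and the one with the largest fold change. Other pathway genes are named at an unadjusted p under 0.05, at most 4 per list. Alternatives were DESeq2 1.42.0, limma-voom (limma 3.58.1), the size factor method of DESeq2 within edgeR, library totals alone, no filter, a minimum of 10 counts in all libraries, and each library left out once. The tests were checked on simulated counts. Shared sequence is the share of 50-base stretches of a gene's GENCODE M21 transcripts that occur in another gene's transcripts. The value of Gbp6 could not be used, since its locus carries overlapping records there. Medians over a role group are descriptions without a test.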

Additional observations from a re-analysis of the deposited data

Results flagged for a closer look

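In the normal cys group, Irf1 in X17SI4 stood far from the other libraries. Its log2 CPM was 8.47, against 7.68 to 7.76 in the other 3, and the gap to the nearest of them was 0.891 of the whole range, above Dixon's 95% critical value for 4 samples. Of 39 genes examined in this way 1 stood out, where chance gives about 1.95 (5% of groups).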

How the results depend on the processing

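Over 40 results and 13 alternatives, 483 of 514 values kept their direction and their side of the threshold or moved by less than the spread. With DESeq2, 16 genes of the whole table and 2 of the other pathway genes were called, Gm4070 (1.09) and Gvin1 (1.06), and the cause of the difference from edgeR was not tested. With any library left out edgeR called 0 to 1 genes (1 without X32SI4) and 0 of the 38. The number of genes lower on low cys without overlap was 3 with library totals alone (1.05% of all genes) and 6 to 15 with a library left out (4.20% to 9.39% of all genes), and the number higher was 0 to 1 (Gbp7 without X17SI4, where it was 8.58% of all genes). Estimates whose sign turned were those near 0 or with a large SE. Irf8 (-0.00) was 0.0592 with limma-voom, 0.13 with library totals alone, 0.00785 with at least 10 counts in every library, and -0.22 to 0.25 with a library left out. With limma-voom, Zbp1 was 0.0764, Iigp1 0.24 and Gbp6 -0.0242. With a library left out, Irf1 ranged from -0.47 to 0.0404, Zbp1 from -1.08 to 0.50, Igtp from -0.54 to 1.00, Iigp1 from -0.93 to 0.91 and Gbp6 from -0.86 to 0.65. In each of these 6 ranges, the highest value was without X17SI4. The cause was not tested. No paired analysis was possible because the labels give no replicate numbers shared between the diets. Genes with few counts, such as Iigp1 with 20 in X1SI4, carry more counting error than the others.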
